A study of Mus musculus and Acomys cahirinus with 84 samples.

Results

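The 10 genes described here were taken as targets of the transcription factor p53 that act in metabolism and DNA repair: Sesn1, Sesn2, Tigar, Rrm2b, Ddb2, Xpc, Polk, Ephx1, Ercc5 and Fdxr. Whether p53 acts on these genes in the cells studied was not measured. The 10 genes were chosen by name, and each had 1 row among the 56980 genes of the mouse count table and 1 row among the 19818 genes of the A. cahirinus count table. All 10 passed the filter on low counts in every comparison below.

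RNA-seq of polyA RNA was made from primary skin fibroblasts, cells grown directly from skin and not immortalised, of C56BL6 mice, wild mice and Acomys cahirinus, the African spiny mouse. Cultures were left untreated or given 10 Gy or 20 Gy of gamma radiation and were collected 24 h or 12 d later. At 12 d a further untreated group is labelled as passaged, so each of the 3 populations had 7 groups of 4 libraries, 84 libraries in all. The labels name no transgene, deletion, drug, sex or age for any group. The 4 replicate numbers of a population correspond to 4 animal codes in the library names, and by these names each code has a library in every group; the wild 12 d libraries numbered 1 go against their code, as given with the library totals. All 24 h libraries are labelled batch B1 and all 12 d libraries batch B2, so an effect of time and one of batch cannot be told apart, and the 2 times were not compared.

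p53 is stabilised after DNA damage and binds paired copies of a short half-site near its target genes. Beside the well-known arrest and death targets it switches on genes that help a cell survive damage. The sestrins Sesn1 and Sesn2 restrain the growth kinase complex mTORC1 through the GATOR complexes, and Sesn2 also reads leucine and responds to the stress factor ATF4. Tigar lowers fructose-2,6-bisphosphate and so favours the pentose phosphate pathway over glycolysis. Rrm2b is the small subunit of ribonucleotide reductase that makes deoxynucleotides outside S phase. Ephx1 is the microsomal epoxide hydrolase and is also known as a target of NRF2. Fdxr passes electrons from NADPH to the mitochondrial ferredoxins for steroid and iron-sulfur cluster synthesis. Ddb2 and Xpc recognise bulky lesions at the start of nucleotide excision repair, Ercc5 (XPG) cuts the damaged strand on its 3′ side, and Polk is a Y-family polymerase that copies past damaged bases.

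Promoter sequence was examined because several of these genes moved together. The RefSeq promoter table (build GRCm38.p6) held windows for 7 of the 10 genes, 9 windows in all; Rrm2b, Ddb2 and Xpc are named only. Each window was searched for the p53 half-site consensus, the only motif searched, whose pattern is the same on both strands. Each window spans 250 bases before to 50 bases after a start. The consensus was present in 2 of the 9 windows, and in 8.36% of all 32851 windows of the table. The matches lay 173 bases before the downstream of the 2 annotated starts of Sesn1 and 231 bases before the downstream of the 2 annotated starts of Polk. Below, the 250 bases before those starts are printed with the half-site in capitals. They stand beside Cdkn1a, the p53 target that arrests the cell cycle, as a reference with 2 matches (73 and 51 bases before the upstream of its 2 annotated starts), and beside Ercc5, which has no match.
Cdkn1a, chr17:29090729-29090978, plus strand: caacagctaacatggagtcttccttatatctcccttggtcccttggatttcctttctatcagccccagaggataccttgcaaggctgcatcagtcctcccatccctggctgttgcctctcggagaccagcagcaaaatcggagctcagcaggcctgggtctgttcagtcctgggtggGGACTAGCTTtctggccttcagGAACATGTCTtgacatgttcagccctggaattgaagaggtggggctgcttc
Sesn1, chr10:41887189-41887438, plus strand: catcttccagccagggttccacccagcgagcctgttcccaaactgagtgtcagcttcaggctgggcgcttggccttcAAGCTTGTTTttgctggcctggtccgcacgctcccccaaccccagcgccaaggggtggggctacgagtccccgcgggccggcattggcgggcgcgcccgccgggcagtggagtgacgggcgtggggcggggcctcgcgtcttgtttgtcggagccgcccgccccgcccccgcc
Polk, chr13:96519188-96519437, minus strand: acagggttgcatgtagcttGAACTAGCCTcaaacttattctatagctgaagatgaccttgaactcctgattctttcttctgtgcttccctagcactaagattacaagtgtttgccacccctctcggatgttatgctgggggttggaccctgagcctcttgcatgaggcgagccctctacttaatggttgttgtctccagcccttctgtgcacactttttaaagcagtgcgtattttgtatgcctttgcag
Ercc5, chr1:44147494-44147743, plus strand: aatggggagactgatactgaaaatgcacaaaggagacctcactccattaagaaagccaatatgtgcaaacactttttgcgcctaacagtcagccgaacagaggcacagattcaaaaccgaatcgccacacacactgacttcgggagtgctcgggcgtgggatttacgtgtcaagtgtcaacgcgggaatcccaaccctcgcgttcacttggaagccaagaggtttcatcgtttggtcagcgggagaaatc
A match describes these letters only; no binding was measured here.

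Library totals ranged from 26.65 to 39.82 M counts in C56BL6, from 17.42 to 35.98 M in wild mice and from 25.55 to 52.86 M in A. cahirinus. The shallowest, wild replicate 1 at 24 h and 10 Gy, also detected 17843 genes, where its 3 companions detected 21846 to 22253. No 2 libraries of the same group agreed within sampling noise. In wild mice the 12 d libraries numbered 1 matched those numbered 4: 0 genes were on in every library of one number and off in every library of the other, against 28 to 95 genes for the other pairs of numbers at 12 d. The 12 d libraries numbered 1 also differed from the 24 h libraries numbered 1 by 59 genes and from the 24 h libraries numbered 4 by 0 genes, which goes against their animal code. Wild 12 d results are therefore also given without replicate 1, and wild results at 24 h and 10 Gy without the shallow library's animal. Fibroblast genes such as Col1a1 (1325 to 30140 CPM, counts scaled to library size) and Vim (2286 to 7944 CPM) were abundant in every library, while Lum was at 0 in 2 C56BL6 and 8 wild libraries. Every A. cahirinus library also carried the muscle markers Myog (167.5 to 1013 CPM), Myod1 (29.98 to 182.7 CPM), Pax7 (6.699 to 81.09 CPM) and Des (235.8 to 1554 CPM), all 4 lowest in replicate 2 of every group. The summed level of the 5 muscle and pericyte markers was 518.7 to 2686 CPM in A. cahirinus libraries at 20 Gy and 12 d and 1025 to 2297 CPM in the untreated ones. Within that sum Pax7, a marker of muscle stem cells, was lower at 20 Gy in all 4 numbers (6.699 to 34.36 CPM against 33.69 to 81.09 CPM untreated). Myog, a marker of differentiating muscle cells, was higher at 20 Gy in replicates 1, 3 and 4 (942.6 to 1013 CPM against 644.6 to 700.2 CPM) and lower in replicate 2 (224.3 against 414.2 CPM). Myog did not exceed 0.2213 CPM in any mouse library, and Des reached 775.8 to 1352 CPM in the wild 24 h libraries of replicate 1. C56BL6 replicate 1 carried the keratinocyte marker Krt14 at 131.6 to 422.2 CPM against at most 0.07472 CPM in the other C56BL6 libraries. The part of these markers in the results below was not tested.

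Levels between genes are compared per length, as RPKM (CPM per kilobase of exon). In untreated C56BL6 cultures at 24 h Ephx1 was highest, at 108 ± 12.3 RPKM (SD, n = 4), followed by Sesn2 at 22.8 ± 3.97, and Ddb2 was lowest at 0.836 ± 0.167. Wild mice had the same genes at both ends of the order, with Ephx1 at 89.2 ± 43.7 RPKM and Ddb2 at 0.741 ± 0.233. In A. cahirinus Sesn2 led at 17.8 ± 1.06 RPKM, followed by Fdxr at 13.2 ± 3.39, Ercc5 at 10.2 ± 1.01 and Ephx1 at 8.78 ± 2.09, neighbours whose libraries overlapped. Ddb2 again closed the order there, at 1.51 ± 0.292 RPKM, next to Polk at 2.11 ± 0.365, and these too overlapped. The middle of the order was close in the mice: Fdxr, Xpc, Sesn1 and Rrm2b lay between 2.11 and 2.505 RPKM in C56BL6, and each overlapped its neighbour. At 12 d the first 2 places and the last place were held by the same genes in both mouse populations, and in A. cahirinus Sesn2 stayed first at 19.9 ± 2.74 RPKM and Ddb2 last at 2.09 ± 0.187. Mouse and A. cahirinus reads were counted on different gene models, so no level was tested between them.

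**Figure D1:**
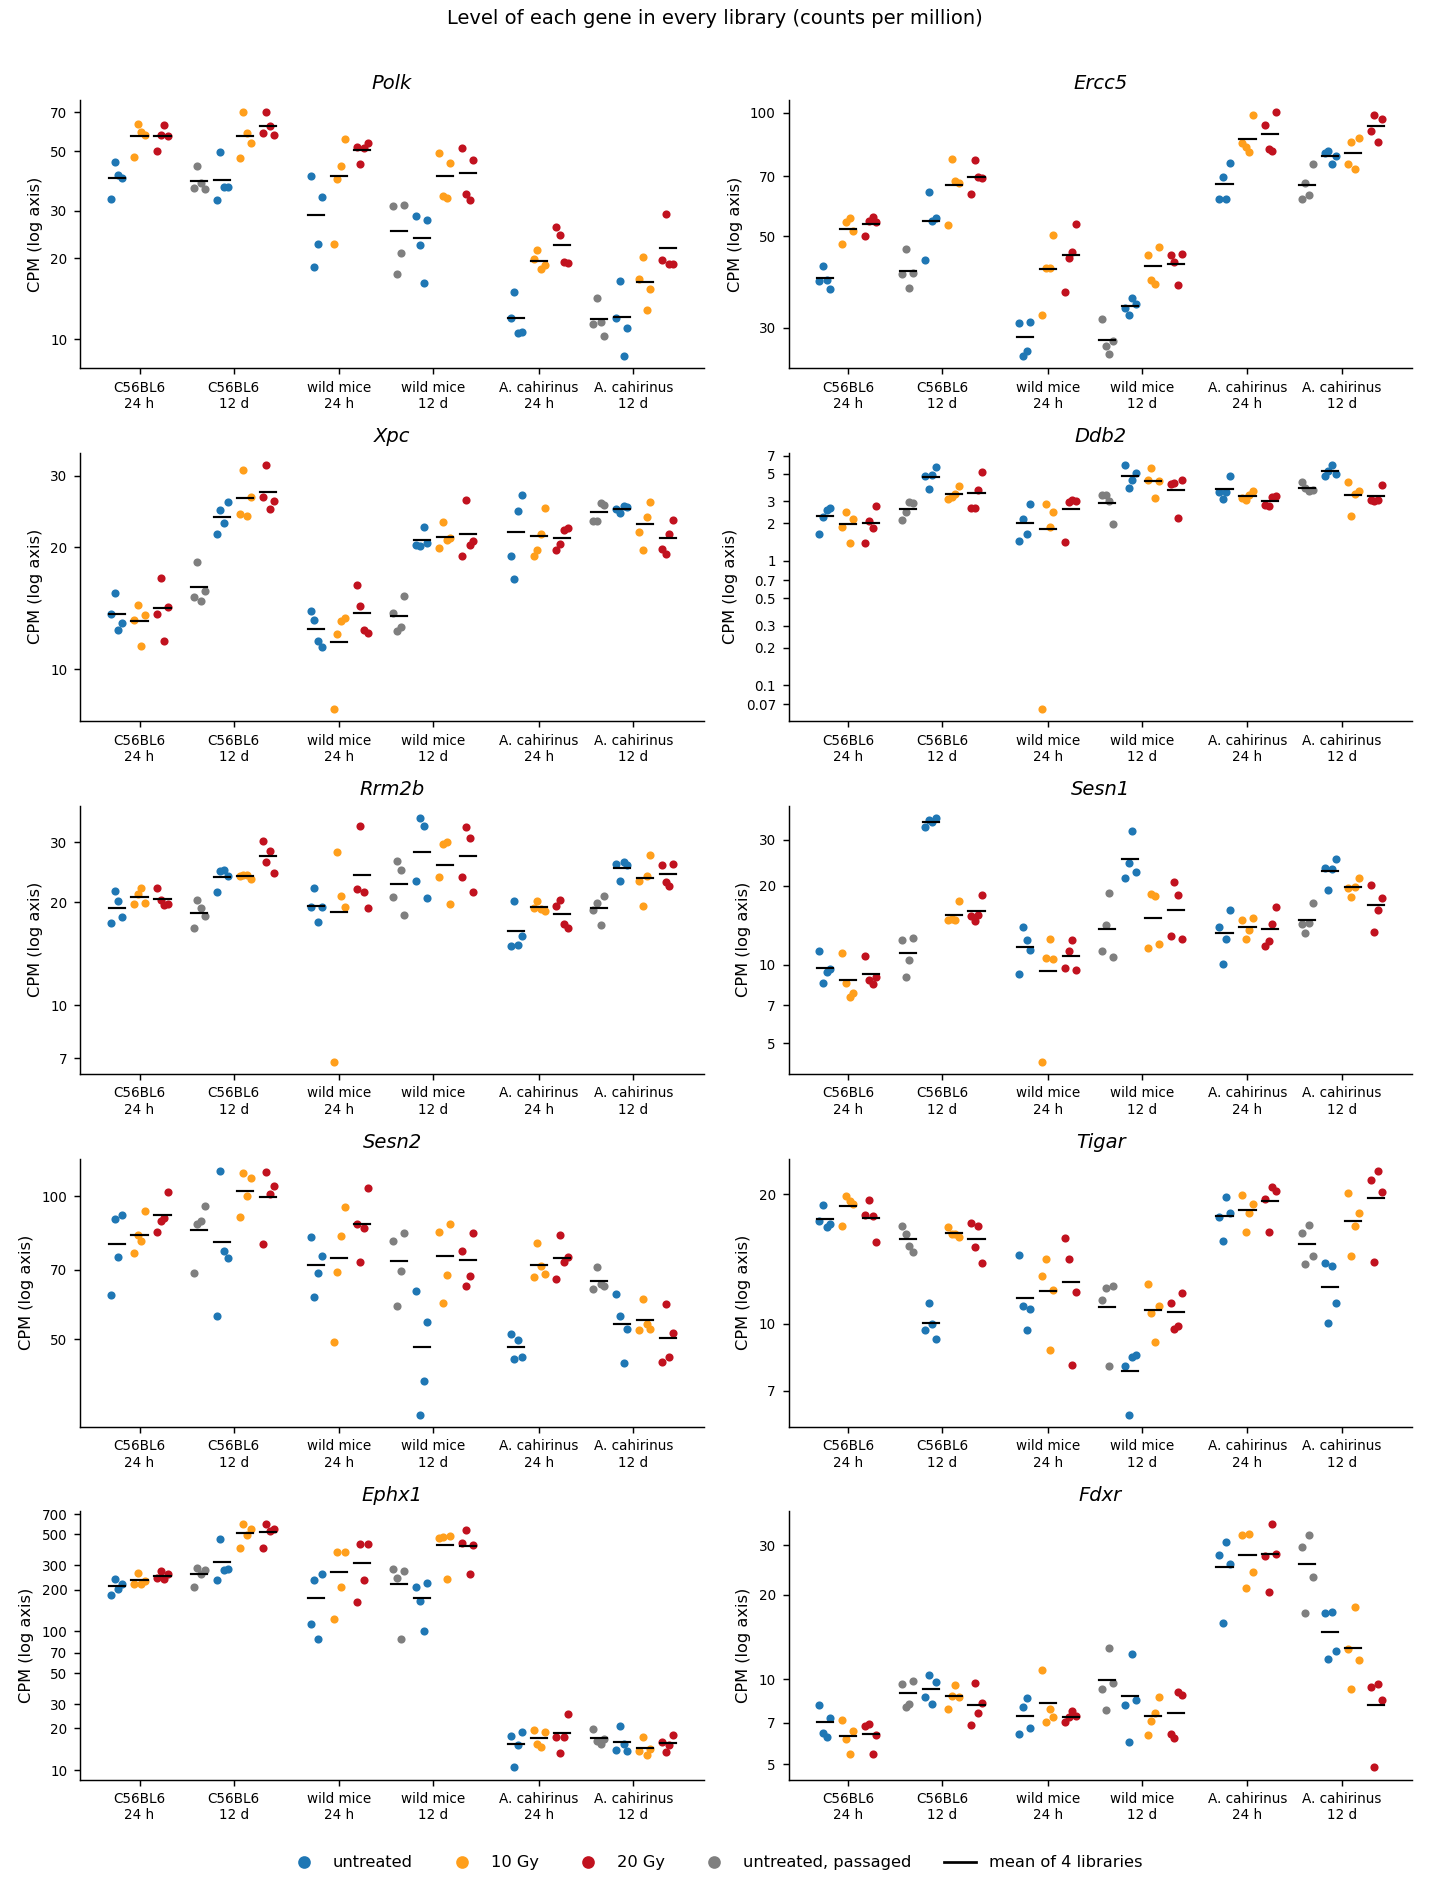
Level of each gene in all 84 libraries, in CPM on a log axis; each point is 1 library, each black line the mean of the 4 libraries of a group, and colours give the treatment. At 20 Gy Polk lies above every untreated library of its population and time, the 4 untreated C56BL6 libraries at 12 d stand above all other Sesn1 values (33.7 to 36.4 CPM), and Fdxr falls to 4.86 to 9.63 CPM in A. cahirinus at 20 Gy and 12 d.

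Changes were fitted with edgeR's quasi-likelihood test over all genes, and adjusted p means the Benjamini-Hochberg value over all genes of a fit. A plain fit compared groups without regard to animal, and a paired fit held the animal (replicate number) as a block. Rose and fell mean an adjusted p under 0.05 in the plain fit; where only the paired fit passed, this is said. Differences are log2 values ± the standard error of the fit, first group minus second. With all 4 animals, a difference given with ± is that of the plain fit, also beside an adjusted p of the paired fit. Without wild replicate 1 it is that of the paired fit. CPM values are given for replicates 1, 2, 3 and 4 in that order.

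At 24 h after 20 Gy, the same 4 genes were higher than in untreated cultures of every population in the paired fit: Polk, Ercc5, Ephx1 and Sesn2. Polk and Sesn2 of A. cahirinus passed the plain fit too. None of the other 6 genes passed either fit in any population, and the median change of the 10 genes was 0.07, 0.31 and 0.19 in C56BL6, wild mice and A. cahirinus, against -0.01, 0.01 and 0.03 over all genes tested. The plain fit called 0 of 10, 0 of 10 and 2 of 10 genes, where it called 0.0895%, 0% and 3.59% of all genes. The paired fit called 4 of 10 in each, where it called 17.6%, 12.5% and 24.1% of all genes. At an unadjusted p under 0.05 the plain edgeR fit held 3 of the 10 genes in C56BL6 and 2 in wild mice. Over all genes tested that cut held 1426 of 14526 and 856 of 14473. DESeq2 called 2 and 1 of the 10, and no share over all genes is given for it.

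At 12 d after 20 Gy, Polk, Ercc5 and Tigar were higher and Sesn1 was lower than in untreated cultures of every population in the paired fit. In C56BL6 Ephx1, Polk and Tigar rose and Sesn1 fell in the plain fit; the paired fit added Ercc5 and Sesn2, both higher. In wild mice the plain fit called none of the 10, and the paired fit called the same 6 genes in the same directions as in C56BL6. In A. cahirinus Ercc5, Polk and Tigar rose and Ddb2 and Fdxr fell; the paired fit added Sesn1 and Xpc, both lower. The counts were 4, 0 and 5 of 10 in the plain fit, beside 26.5%, 0.0694% and 31.8% of all genes, and 6, 6 and 7 of 10 in the paired fit, beside 47.5%, 15.4% and 49.2%. Without wild replicate 1 the paired fit kept 3 of the 6 wild genes, Ephx1, Polk and Sesn2, beside 2% of all genes. At an unadjusted p under 0.05 the plain edgeR fit of wild mice held 6 of the 10 genes, beside 1984 of all 14399 tested, and DESeq2 called 3.

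**Figure D2:**
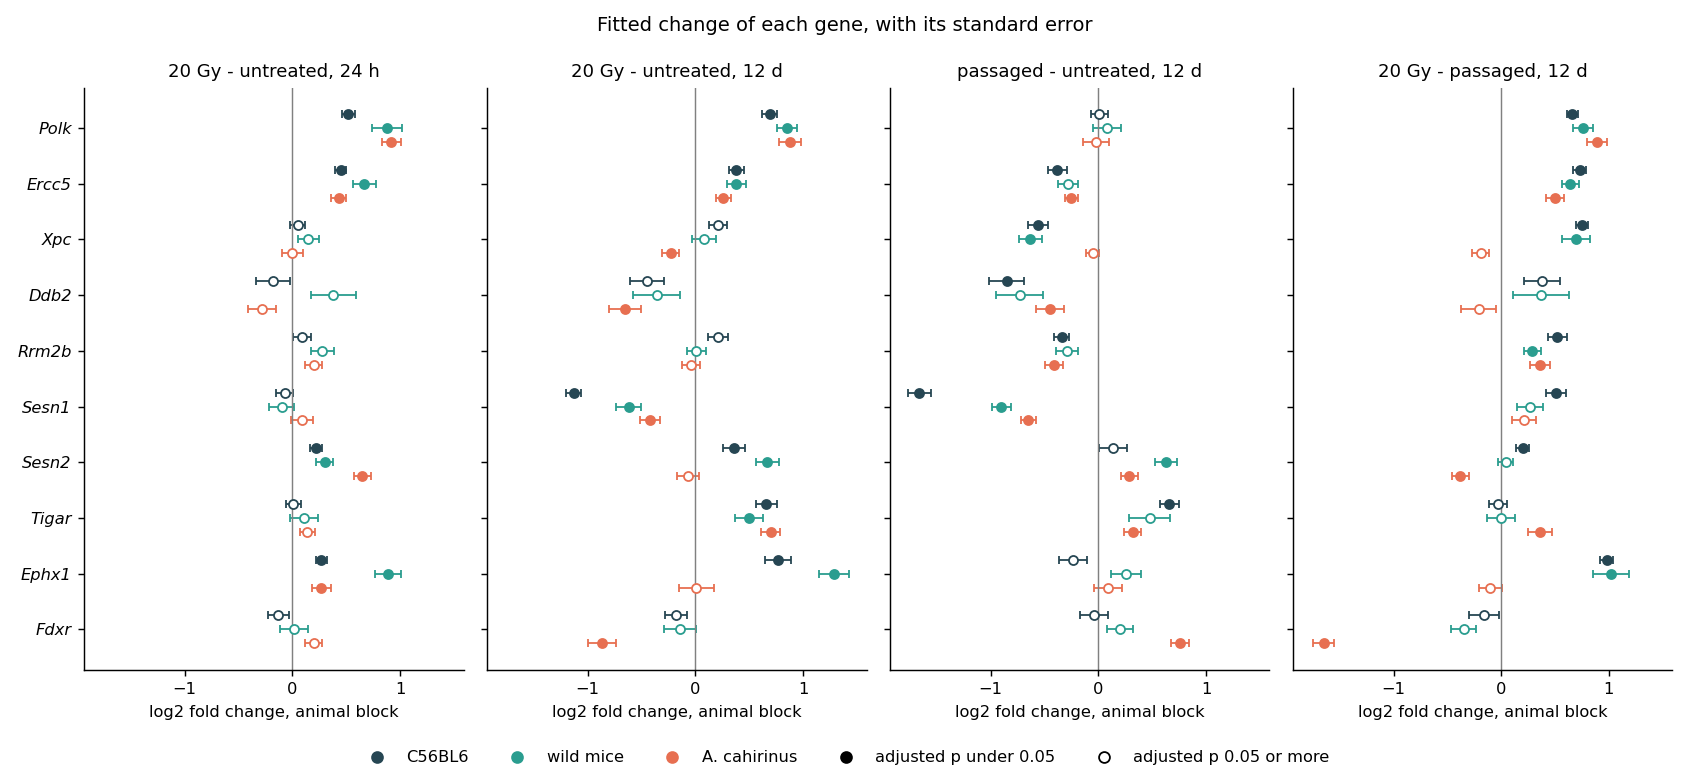
Log2 fold change of each gene in the paired fit, with its standard error, for 20 Gy against untreated at 24 h and at 12 d, untreated passaged against untreated, and 20 Gy against untreated passaged; filled points have an adjusted p under 0.05, and colours give the population. Polk and Ercc5 lie right of 0 in all 9 comparisons that hold irradiated cells, while Sesn1 lies left of 0 against the untreated cultures of 12 d and Fdxr reaches -1.65 against passaged A. cahirinus.

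Polk (mouse chr13:96617198-96679087, GRCm39; A. cahirinus scaffold 18) was higher after 20 Gy in every population at both times in the paired fit. In untreated C56BL6 cultures at 24 h its 4 libraries held 33.2, 45.5, 40.9 and 39.9 CPM, and after 20 Gy 50.2, 57.7, 62.6 and 56.9 CPM. Every irradiated library lay above every untreated one, a change of 0.52 ± 0.10 (adjusted p = 0.115) that passed the paired fit (adjusted p = 3.46e-05). Wild cultures went from 40.6, 18.6, 22.6 and 33.9 to 51.96, 44.8, 51.4 and 53.8 CPM. These groups did not overlap either, and the change of 0.82 ± 0.24 again passed only the paired fit (plain and paired adjusted p = 0.696 and 0.00246). A. cahirinus went from 11.97, 14.98, 10.5 and 10.6 to 26.2, 24.4, 19.4 and 19.2 CPM, with no overlap and a rise of 0.92 ± 0.17 (adjusted p = 0.0221). The call was lost without replicate 1, 3 or 4 (adjusted p = 0.166, 0.175 and 0.081) in the plain fit and held in the paired fit (adjusted p = 4.7e-05).

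At 12 d Polk read 32.9, 49.8, 36.8 and 36.8 CPM in untreated C56BL6 cultures and 58.8, 70.03, 62.2 and 57.5 CPM after 20 Gy, a rise of 0.68 ± 0.13 (adjusted p = 0.00916). The groups did not overlap, and without replicate 3 or 4 the adjusted p was 0.078 and 0.0575. The 12 d wild libraries held 28.6, 22.3, 16.1 and 27.9 CPM untreated and 51.5, 34.6, 32.9 and 46.6 CPM at 20 Gy. The lowest irradiated library stood above the highest untreated one, and the change of 0.84 ± 0.23 passed the paired fit with all 4 numbers (adjusted p = 0.00492) and without replicate 1 (0.83 ± 0.13, adjusted p = 0.0418). In A. cahirinus Polk went from 12.02, 16.5, 8.66 and 11.04 to 19.7, 29.3, 19.1 and 19.1 CPM, a rise of 0.87 ± 0.22 (adjusted p = 0.0187; 0.11, 0.0937 and 0.0762 without replicate 1, 3 or 4). Replicate 2, the highest there in both groups, is also the A. cahirinus culture with the least muscle marker RNA, whose part in this value was not tested.

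Ercc5 (chr1:44186904-44220420; A. cahirinus scaffold 2), the endonuclease of nucleotide excision repair, moved by less but with little spread. Untreated C56BL6 libraries at 24 h read 38.9, 42.5, 39.3 and 37.4 CPM and those at 20 Gy 50.2, 54.4, 55.6 and 54.4 CPM. All 4 irradiated libraries were above all 4 untreated ones; the change of 0.44 ± 0.06 had an adjusted p of 0.0505 in the plain and 7.8e-05 in the paired fit. The wild values were 30.8, 25.6, 26.3 and 30.9 CPM untreated and 36.7, 44.3, 45.7 and 53.5 CPM at 20 Gy, and those of A. cahirinus 61.8, 69.6, 61.8 and 75.6 and 93.1, 81.6, 80.7 and 100 CPM. Again no irradiated library fell among the untreated ones, with changes of 0.68 ± 0.14 and 0.43 ± 0.10 that passed only the paired fit (adjusted p = 0.00281 and 0.00156; plain 0.48 and 0.058). At 12 d the change was 0.37 ± 0.12 in C56BL6, 0.38 ± 0.10 in wild mice and 0.26 ± 0.07 in A. cahirinus. The last was a rise in the plain fit (adjusted p = 0.0274), lost without replicate 1, 3 or 4 (adjusted p = 0.146, 0.105 and 0.14). The 2 mouse changes passed the paired fit (adjusted p = 0.00457 and 0.0401), the wild one not without replicate 1 (0.34 ± 0.12, adjusted p = 0.186).

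Xpc (chr6:91466287-91492870; A. cahirinus scaffold 4), the lesion sensor of global genome repair, passed neither fit at 24 h: the plain change was 0.05 ± 0.12, 0.15 ± 0.14 and -0.02 ± 0.14, with paired adjusted p of 0.713, 0.387 and 0.989. At 12 d its change differed between A. cahirinus and C56BL6. Untreated A. cahirinus libraries read 24.9, 24.4, 25.3 and 25.1 CPM and those at 20 Gy 19.8, 19.3, 21.6 and 23.3 CPM. The groups did not overlap, and the change of -0.22 ± 0.08 passed only the paired fit (adjusted p = 0.0478, plain 0.0702). In C56BL6 the libraries read 21.6, 24.7, 22.98 and 25.8 CPM untreated and 26.6, 31.9, 24.8 and 26.1 CPM at 20 Gy, higher within all 4 replicate numbers but overlapping between groups (0.21 ± 0.10, adjusted p = 0.153, paired 0.063). The difference between these changes, A. cahirinus minus C56BL6, was -0.44 ± 0.13 (adjusted p = 0.0311) and passed the paired fit too (adjusted p = 0.0115). It was lost in the plain fit without any 1 replicate number (adjusted p = 0.065 to 0.137).

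Ddb2 (chr2:91041917-91067327; A. cahirinus scaffold 1), the damage-binding partner that hands lesions to Xpc, was the least abundant member throughout. In mouse 652 of its 2736 exonic bases (23.8%) lie opposite exons of Acp2, and the counting used no strand option, so mouse values are uncertain. At 20 Gy and 12 d the A. cahirinus libraries read 3.08, 2.998, 3.09 and 4.07 CPM against 4.84, 5.24, 5.898 and 4.99 CPM untreated. The groups did not overlap, and Ddb2 fell there (-0.64 ± 0.15, adjusted p = 0.0148), a call that was lost without replicate 1 or 3 (adjusted p = 0.0877 and 0.115). The 10 Gy cultures were also lower in the paired fit (-0.62 ± 0.19, adjusted p = 0.0361, plain 0.118). In C56BL6 and wild mice the 12 d changes were -0.41 ± 0.25 and -0.33 ± 0.28, with overlapping groups and paired adjusted p of 0.0579 and 0.306. At 24 h no population passed either fit. The wild 24 h library of replicate 1 at 10 Gy read 0.0645 CPM, where the other 3 libraries held 1.88 to 2.84 CPM.

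Rrm2b (chr15:37924196-37961562; A. cahirinus scaffold 6), which supplies deoxynucleotides for repair, did not pass either fit at 20 Gy against untreated at either time. At 24 h it changed by 0.09 ± 0.09, 0.31 ± 0.19 and 0.19 ± 0.14 and at 12 d by 0.21 ± 0.09, -0.01 ± 0.22 and -0.04 ± 0.09 in C56BL6, wild mice and A. cahirinus. At 10 Gy and 24 h the A. cahirinus libraries read 19.2, 20.2, 19.1 and 18.9 CPM against 14.9, 20.1, 14.96 and 15.9 CPM untreated, higher within each of the 4 numbers and overlapping between groups (0.26 ± 0.12, paired adjusted p = 0.0237, plain 0.34). Untreated replicate 2 stood above the other 3 there.

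Sesn1 (chr10:41685931-41784420; A. cahirinus scaffold 10) showed the largest fall of the 10 genes in C56BL6. The untreated C56BL6 cultures of 12 d held 33.7, 35.6, 34.99 and 36.4 CPM, those at 10 Gy 14.8, 14.9, 14.8 and 17.4 CPM and those at 20 Gy 15.4, 14.6, 15.5 and 18.4 CPM. The irradiated groups overlapped each other and both lay below the untreated one, with changes of -1.16 ± 0.08 at 10 Gy and -1.12 ± 0.09 at 20 Gy (adjusted p = 0.000774 and 0.000651). Marker lists moved in the same C56BL6 libraries: the summed level of 9 fibroblast markers was 29960 to 49910 CPM untreated and 11250 to 15300 CPM at 20 Gy, that of 3 adipocyte markers 4.661 to 20.94 and 0.4177 to 1.186 CPM, that of 4 melanocyte markers 3.222 to 3.627 and 1.738 to 2.924 CPM, and that of 5 leukocyte markers 6.538 to 9.344 and 15.99 to 22.05 CPM. None of these ranges overlap. Over all C56BL6 libraries the leukocyte sum was carried by Csf1r (up to 22.59 CPM) and Cd68 (up to 5.709 CPM). Ptprc, Adgre1 and Cd3e, of the same list, stayed at or below 0.1805 CPM. The melanocyte sum was carried by Pmel (up to 3.469 CPM), with Dct, Tyr and Mlana at or below 0.377 CPM. The part of all these markers in the C56BL6 changes at 12 d was not tested. Both Sesn1 calls held without any 1 replicate number (adjusted p up to 0.0284 and 0.023). Wild libraries held 21.4, 24.6, 32.5 and 22.6 CPM untreated and 12.9, 20.8, 18.5 and 12.5 CPM at 20 Gy, where replicates 2 and 3 stayed above 1 and 4. No irradiated library reached the untreated ones, and the change of -0.61 ± 0.22 passed the paired fit (adjusted p = 0.0211) but not without replicate 1 (-0.60 ± 0.16, adjusted p = 0.112). In A. cahirinus Sesn1 went from 23.5, 19.3, 23.1 and 25.4 to 20.1, 13.3, 16.2 and 18.04 CPM, lower within each number and overlapping between groups, a change that passed only the paired fit (-0.41 ± 0.14, adjusted p = 0.00716, plain 0.0561). The change in A. cahirinus was smaller than in C56BL6: the difference was 0.71 ± 0.16 (adjusted p = 0.00895; 0.0962 without replicate 3). Against wild mice it was 0.21 ± 0.27 (adjusted p = 0.737, paired 0.371). At 24 h Sesn1 passed no fit: its changes at 20 Gy were -0.07 ± 0.13, -0.10 ± 0.18 and 0.09 ± 0.16.

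Sesn2 (chr4:132219343-132237812; A. cahirinus scaffold 15) rose at 24 h in A. cahirinus. Its untreated libraries at 24 h read 51.2, 45.4, 49.7 and 45.9 CPM, those at 10 Gy 67.6, 79.6, 71.5 and 68.6 CPM and those at 20 Gy 66.9, 82.9, 72.6 and 74.5 CPM. Every irradiated library was above every untreated one and the 2 doses overlapped; the rises were 0.61 ± 0.08 and 0.66 ± 0.09 (adjusted p = 0.0072 and 0.00641). Without replicate 1 or 3 the 10 Gy call was lost (adjusted p = 0.0989 and 0.152), and without replicate 1, 3 or 4 the 20 Gy call (adjusted p = 0.0622, 0.118 and 0.052). In the mice the 20 Gy changes at 24 h were 0.21 ± 0.12 and 0.30 ± 0.14, with overlapping groups and calls in the paired fit only (adjusted p = 0.026 and 0.0381). At 12 d it was higher after 20 Gy in the mice, in the paired fit only. Wild libraries read 63.1, 34.7, 40.8 and 54.2 CPM untreated and 76.9, 64.7, 67.9 and 83.7 CPM at 20 Gy, without overlap and higher in the paired fit with and without replicate 1 (0.64 ± 0.20 plain, adjusted p = 0.0127 paired; 0.79 ± 0.11, adjusted p = 0.0386). C56BL6 changed by 0.33 ± 0.21 (paired adjusted p = 0.0253, plain 0.276), where untreated replicate 2, at 113 CPM, stood above the other 3. A. cahirinus read 62.3, 55.9, 44.5 and 52.6 CPM untreated and 44.8, 59.2, 45.8 and 51.5 CPM at 20 Gy, overlapping (-0.08 ± 0.13, paired adjusted p = 0.585).

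Tigar (chr6:127062079-127086520; A. cahirinus scaffold 4) was higher at 12 d after 20 Gy in every population in the paired fit. C56BL6 libraries held 9.7, 11.2, 9.98 and 9.24 CPM untreated and 17.2, 15.1, 16.9 and 13.9 CPM at 20 Gy; the groups did not overlap, a rise of 0.66 ± 0.11 (adjusted p = 0.00451; 0.0594 without replicate 3). A. cahirinus went from 13.8, 10.1, 13.7 and 11.2 to 21.6, 13.9, 22.7 and 20.2 CPM. Replicate 2 was lowest in both groups and its irradiated library only just cleared the untreated ones, a rise of 0.71 ± 0.18 (adjusted p = 0.017; 0.0675, 0.0698 and 0.0975 without replicate 1, 3 or 4). Wild libraries went from 8, 6.16, 8.396 and 8.47 to 11.2, 9.71, 9.87 and 11.8 CPM, without overlap. The wild change of 0.50 ± 0.17 passed the paired fit (adjusted p = 0.0423) but not without replicate 1 (0.49 ± 0.17, adjusted p = 0.181). At 24 h the changes were within 0.02 to 0.14 and passed no fit.

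Ephx1 (chr1:180803775-180848469; A. cahirinus scaffold 5) was called in the mice and not in A. cahirinus at 12 d. At 12 d the wild libraries read 210, 166, 100 and 224 CPM untreated and 433, 538, 261 and 421 CPM at 20 Gy, with replicate 3 lowest in both. Even that library lay above every untreated one, and the change of 1.28 ± 0.30 (adjusted p = 0.133) passed the paired fit (adjusted p = 0.00511; 0.0352 without replicate 1). C56BL6 libraries read 235, 466, 275 and 280 CPM untreated and 401, 590, 528 and 550 CPM at 20 Gy. Each number was higher after irradiation, but untreated replicate 2 lay above irradiated replicate 1, a rise of 0.73 ± 0.23 (adjusted p = 0.0456; 0.202 and 0.196 without replicate 3 or 4, and 0.0564 without the filter on low counts). A. cahirinus stayed between 13.5 and 20.7 CPM in both groups, a difference of -0.01 ± 0.15 (paired adjusted p = 0.977). At 24 h the changes at 20 Gy were 0.27 ± 0.09, 0.87 ± 0.45 and 0.27 ± 0.22, calls in the paired fit only (adjusted p = 0.00142, 0.00121 and 0.0451), with overlapping groups in all 3 populations.

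Fdxr (chr11:115158850-115167876; A. cahirinus scaffold 9) fell with irradiation in A. cahirinus at 12 d. Its libraries read 17.2, 11.8, 17.3 and 12.7 CPM untreated, 12.8, 9.24, 18.1 and 11.7 CPM at 10 Gy and 9.38, 4.86, 9.63 and 8.45 CPM at 20 Gy. The 20 Gy group lay wholly below the untreated group, with a change of -0.85 ± 0.23 (adjusted p = 0.0259; 0.102, 0.0911 and 0.0796 without replicate 1, 3 or 4). Replicate 2, the culture lowest in muscle markers, had the lowest Fdxr in each of the 7 A. cahirinus groups, and the summed level of the 15 proliferation genes went from 369.9 to 503.2 CPM untreated to 79.83 to 96.17 CPM at 20 Gy in these libraries. Their part in the Fdxr change was not tested. In bulk RNA, fewer cells of a type and less RNA per cell cannot be told apart. In C56BL6 the 12 d change was -0.18 ± 0.14 and in wild mice -0.16 ± 0.26, with overlapping groups and no call in either fit (paired adjusted p = 0.166 and 0.563). At 24 h no population passed either fit.

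At 10 Gy no more of the 10 genes passed than at 20 Gy, in either fit with all 4 animals. At 24 h Polk and Sesn2 rose in A. cahirinus, with 19.9, 21.4, 18.2 and 18.8 CPM for Polk against the untreated values above (0.73 ± 0.14, adjusted p = 0.027; 0.23, 0.217 and 0.12 without replicate 1, 3 or 4), and the paired fit added Ercc5 and Rrm2b. In C56BL6 Polk and Ercc5 passed the paired fit only (0.52 ± 0.11 and 0.41 ± 0.07, adjusted p = 0.000158 and 0.00106). In wild mice no gene passed with all 4 animals, and without replicate 1 Polk (0.93 ± 0.09, adjusted p = 0.000102), Ercc5 (0.71 ± 0.07, 0.000169), Ephx1 (0.82 ± 0.11, 0.000817) and Sesn2 (0.28 ± 0.07, 0.0148) were higher in the paired fit. The plain counts at 24 h were 0, 0 and 2 of 10 beside 0.007%, 0% and 3.73% of all genes, the paired counts 2, 0 and 4 beside 11.5%, 0% and 27.6%, and 4 of 10 beside 23% in wild mice without replicate 1. At 12 d Polk (0.57 ± 0.16, adjusted p = 0.0407; 0.214 and 0.148 without replicate 3 or 4) and Tigar (0.72 ± 0.09, 0.00315; 0.0572 without replicate 3) rose and Sesn1 fell in C56BL6, and the paired fit added Ephx1, Ercc5 and Sesn2. Wild mice had 4 paired calls (Ephx1, Polk and Sesn2 higher, Sesn1 lower), of which Sesn1 was lost without replicate 1 (-0.70 ± 0.16, adjusted p = 0.0741). A. cahirinus had 3 (Polk and Tigar higher, Ddb2 lower). The 12 d counts were 3, 0 and 0 of 10 plain beside 20.9%, 0.264% and 2.87%, and 6, 4 and 3 paired beside 38.8%, 12.7% and 27.5% (2.52% in wild mice without replicate 1). The paired A. cahirinus count lies near its share. Where edgeR's plain fit called 0 of 10, some genes had an unadjusted p under 0.05. These were 2 (C56BL6, 24 h), 1 (wild, 24 h), 6 (wild, 12 d) and 2 (A. cahirinus, 12 d). Over all genes that cut held 1116 of 14280, 603 of 14412, 1763 of 14391 and 2880 of 13215. The A. cahirinus count lies near the share of all genes. The paired wild fit of 24 h held 2 of the 10, beside 1564 of 14412. DESeq2 called 2, 0, 3 and 2.

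Between 20 Gy and 10 Gy the plain fit called none of the 10 genes in any of the 6 comparisons. In A. cahirinus at 12 d the paired fit had Polk higher (plain difference 0.43 ± 0.19, paired adjusted p = 0.0208, plain 0.364) and Fdxr lower (plain difference -0.67 ± 0.27, paired adjusted p = 0.0106, plain 0.308) at the higher dose, each in all 4 numbers. In wild mice at 24 h without replicate 1 the paired fit had Ephx1 higher (0.18 ± 0.04, adjusted p = 0.0129). The plain fit called 0%, 0% and 0% of all genes at 24 h and 0%, 0% and 0.457% at 12 d in C56BL6, wild mice and A. cahirinus. The paired fit called 1.44%, 0% and 0.302% at 24 h, 0.297%, 0.257% and 17.9% at 12 d, and 1.94% and 0.0538% in wild mice without replicate 1 at 24 h and 12 d. At an unadjusted p under 0.05 the plain edgeR fits held 0, 0 and 0 of the 10 genes at 24 h and 1, 0 and 2 at 12 d. Over all genes that cut held 277 of 14644, 72 of 14623 and 55 of 13242 at 24 h. At 12 d it held 301 of 15463, 37 of 14770 and 1917 of 13564. DESeq2 called 0 of the 10 in each.

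At 12 d the untreated cultures were compared with untreated cultures that had been passaged. Sesn1 was lower in the passaged cultures of every population. In C56BL6 the passaged libraries read 12.4, 8.96, 10.4 and 12.6 CPM, where the untreated ones held 33.7 to 36.4 CPM, with a change of -1.65 ± 0.12 (adjusted p = 0.000155). The wild passaged libraries read 11.2, 14.2, 18.7 and 10.7 CPM (-0.89 ± 0.22, adjusted p = 0.0411; 0.21, 0.119 and 0.167 without replicate 1, 2 or 4) and those of A. cahirinus 14.3, 13.2, 14.4 and 17.1 CPM (-0.65 ± 0.11, adjusted p = 0.0043; 0.0577 and 0.0532 without replicate 1 or 3). No passaged library reached an untreated one of its population. The proliferation genes moved the other way: their summed level was 920.0 to 1293 CPM in passaged and 89.94 to 434.0 CPM in untreated C56BL6 cultures, 607.7 to 1258 and 56.11 to 421.5 CPM in wild mice, and 465.7 to 894.7 and 369.9 to 503.2 CPM in A. cahirinus. Fibroblast markers summed to 17720 to 26230 CPM in passaged C56BL6 and 20410 to 26950 CPM in passaged A. cahirinus cultures, below the 29960 to 49910 and 31350 to 36990 CPM of the untreated ones. The part of either list in the change of Sesn1 was not tested.

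A further 4 of the genes fell on passaging in C56BL6, Ddb2 (-0.85 ± 0.18, adjusted p = 0.00597), Xpc (-0.56 ± 0.10, 0.00284), Ercc5 (-0.39 ± 0.13, 0.0312) and Rrm2b (-0.33 ± 0.09, 0.0157), and Tigar rose (0.66 ± 0.10, 0.00139). The Ercc5 call was lost without replicate 2, 3 or 4 (adjusted p = 0.061, 0.146 and 0.138) and the Rrm2b call without replicate 3 or 4 (0.0828 and 0.0931). In wild mice Xpc fell beside Sesn1 (-0.62 ± 0.12, adjusted p = 0.0211), a call that was lost without replicate 1, 2 or 4 (adjusted p = 0.188, 0.0624 and 0.0997) and in the paired fit without replicate 1 (adjusted p = 0.0526). Sesn2 was higher in the paired fit there with and without replicate 1 (adjusted p = 0.00728 and 0.0245). In A. cahirinus Ddb2 (-0.45 ± 0.12, adjusted p = 0.0307), Ercc5 (-0.25 ± 0.08, 0.0498) and Rrm2b (-0.41 ± 0.08, 0.0103) fell beside Sesn1, and the paired fit added Sesn2 and Tigar, both higher.

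Fdxr rose on passaging in A. cahirinus: its passaged libraries read 29.6, 17.2, 32.7 and 23.2 CPM against 11.8 to 17.3 CPM untreated, higher in each number although passaged replicate 2 lay among the untreated values (0.78 ± 0.21, adjusted p = 0.0262; 0.115, 0.103 and 0.099 without replicate 1, 3 or 4). The mouse changes were -0.04 ± 0.13 and 0.18 ± 0.25, and the difference between species in this contrast was not tested. The Rrm2b call was lost without replicate 1, 3 or 4, and the Ddb2 and Ercc5 calls without any 1 number, with an adjusted p between 0.0547 and 0.248. The counts were 6, 2 and 5 of 10 in the plain fit beside 49.6%, 10.7% and 25.8% of all genes, 6, 3 and 7 in the paired fit beside 60.1%, 31.9% and 49.5%, and 2 in wild mice without replicate 1 beside 13.7%. Both C56BL6 counts and the paired wild count lie near the share of all genes.

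**Figure D3:**
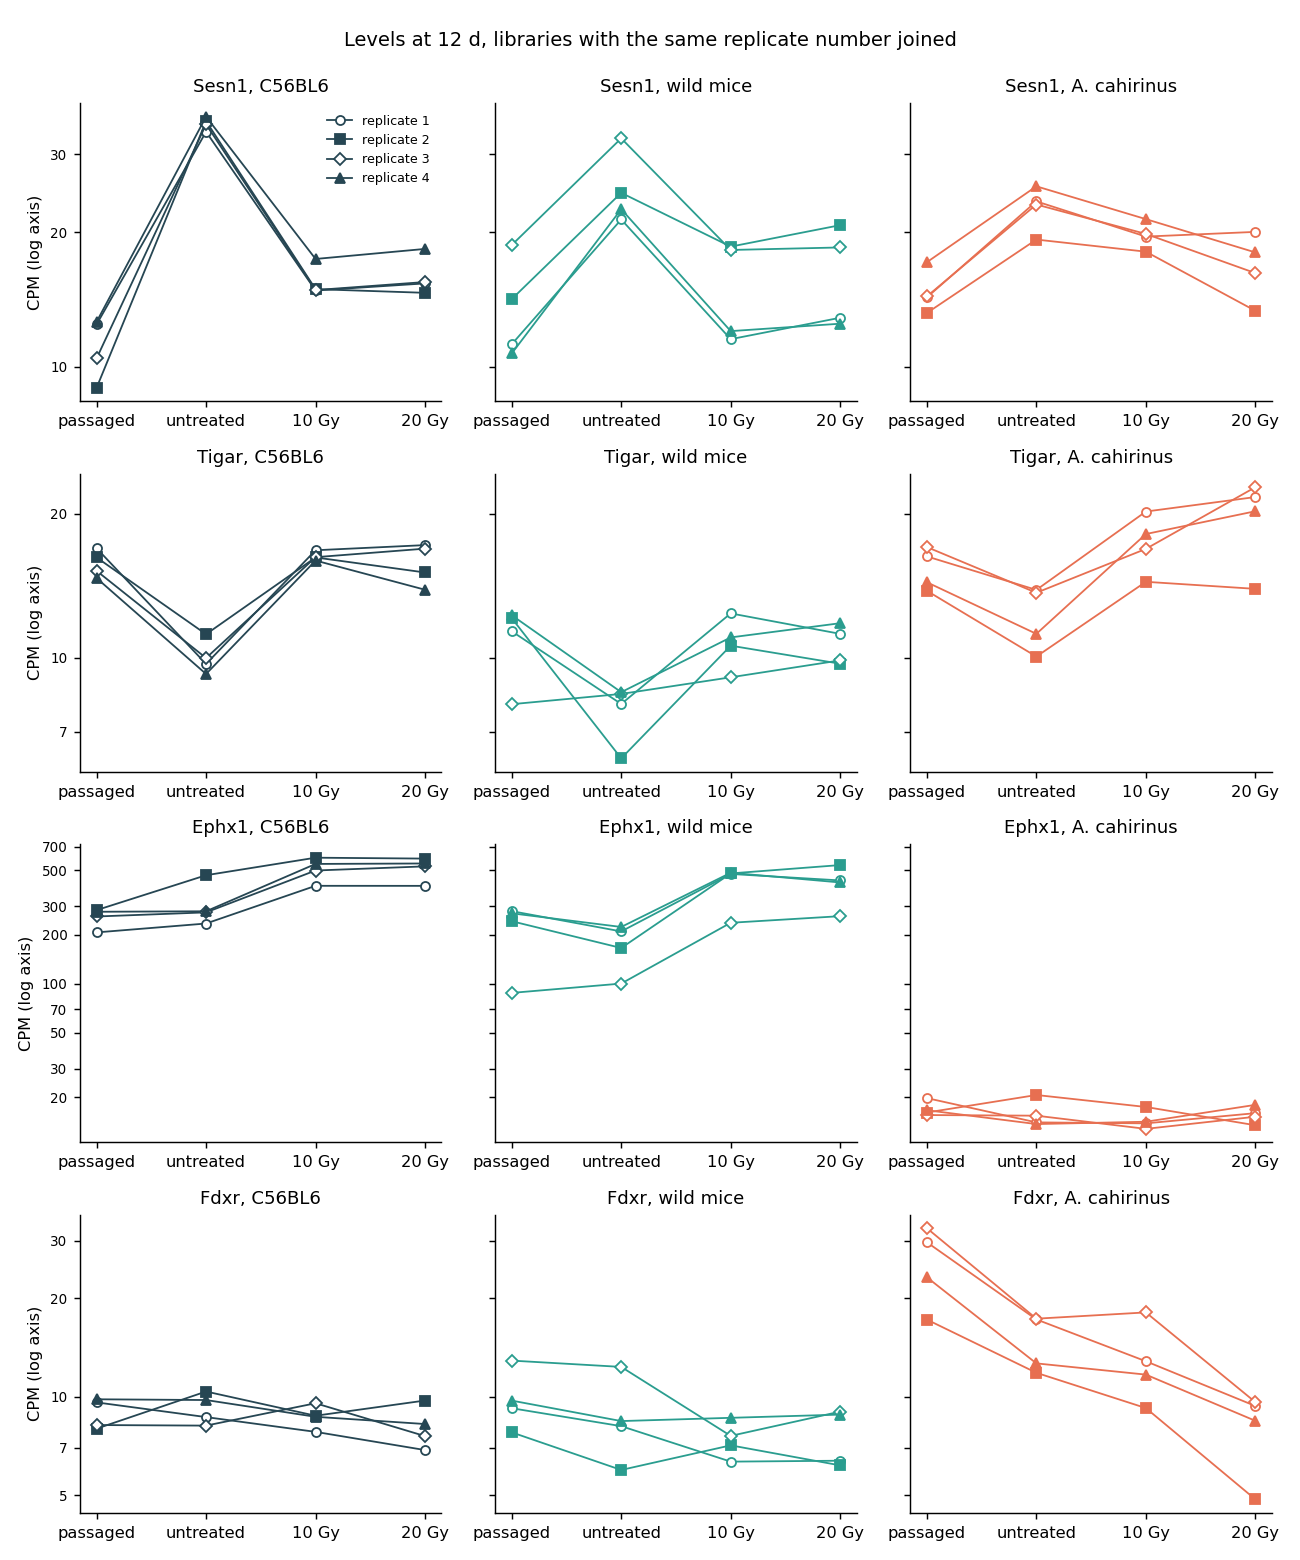
Sesn1, Tigar, Ephx1 and Fdxr at 12 d in each population, in CPM on a log axis, with the 4 libraries of a replicate number joined across passaged, untreated, 10 Gy and 20 Gy cultures. Sesn1 peaks and Tigar dips in the untreated cultures of C56BL6, Ephx1 is higher after irradiation in both mouse populations, and Fdxr steps down from passaged (17.2 to 32.7 CPM) to 20 Gy (4.86 to 9.63 CPM) in A. cahirinus.

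Against the passaged cultures, which share the 20 Gy libraries with the comparison above, C56BL6 cultures at 20 Gy had more of the 10 genes higher. There 6 genes rose and none fell: Ephx1 (0.98 ± 0.14, adjusted p = 0.00116), Xpc (0.75 ± 0.11, 0.00108), Ercc5 (0.73 ± 0.09, 0.000397), Polk (0.65 ± 0.09, 0.000908), Rrm2b (0.52 ± 0.09, 0.00303) and Sesn1 (0.50 ± 0.14, 0.0182). The paired fit added Sesn2, higher. Sesn1 thus lay between the passaged and the untreated cultures, with 14.6 to 18.4 CPM at 20 Gy and at most 12.6 CPM in passaged libraries, and its call was lost without replicate 2, 3 or 4 (adjusted p = 0.0548, 0.095 and 0.0518). Tigar, at 16.9, 16.2, 15.2 and 14.7 CPM in passaged C56BL6 libraries, did not differ from the 13.9 to 17.2 CPM at 20 Gy by more than the spread (-0.02 ± 0.10, adjusted p = 0.863).

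In wild mice Ercc5 and Xpc rose against the passaged cultures (0.64 ± 0.10 and 0.70 ± 0.14, adjusted p = 0.0114 and 0.02), both lost without replicate 1, 2 or 4 in the plain fit (adjusted p = 0.0704 to 0.11 for Ercc5 and 0.081 to 0.119 for Xpc). The paired fit added Ephx1, Polk and Rrm2b, all higher, and of its 5 calls Rrm2b was lost without replicate 1 (adjusted p = 0.0788). In A. cahirinus Polk (0.90 ± 0.17), Ercc5 (0.50 ± 0.09) and Rrm2b (0.36 ± 0.10) rose and Sesn2 (-0.37 ± 0.10) and Fdxr (-1.64 ± 0.26) fell (adjusted p = 0.00435, 0.00347, 0.0186, 0.0212 and 0.00188), and the paired fit added Tigar, higher. Fdxr held without any 1 number (adjusted p up to 0.0196), as did Polk and Ercc5, while Rrm2b and Sesn2 were lost without replicate 1, 3 or 4 (adjusted p up to 0.141 and 0.142). The counts were 6, 2 and 5 of 10 plain beside 41.6%, 10.5% and 42.5%, 7, 5 and 6 paired beside 56.1%, 38% and 56%, and 4 in wild mice without replicate 1 beside 28.2%. Both A. cahirinus counts lie near the share of all genes.

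Whether the populations changed differently at 20 Gy was tested as an interaction over genes with the same symbol in both tables. At 12 d the change of Sesn1 was less negative and that of Xpc lower in A. cahirinus than in C56BL6, as given above, 2 of 10 genes beside 18.8% of all genes. The paired fit added Ephx1 (plain difference -0.74 ± 0.29, paired adjusted p = 0.0197, plain 0.086) and Fdxr (plain difference -0.67 ± 0.27, paired adjusted p = 0.00783, plain 0.0999), beside 38%. The plain and the paired count both lie near the share of all genes. Against wild mice the plain fit called 0 of 10 at 12 d beside 3.35%, with 2 at an unadjusted p under 0.05. Over all genes that cut held 2703 of 13888, a share near that of the 10 genes. The paired fit called Ephx1 (plain difference -1.28 ± 0.35, paired adjusted p = 0.00444), Sesn2 (plain -0.71 ± 0.24, paired 0.0109) and Fdxr (plain -0.67 ± 0.37, paired 0.0311), all lower in A. cahirinus, beside 23.3%. The same 3 passed without wild replicate 1 (adjusted p = 0.00975, 0.00956 and 0.047, beside 16.5%).

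At 24 h no interaction passed the plain fit, beside 2.09% (A. cahirinus against C56BL6) and 0% (against wild mice) of all genes. At an unadjusted p under 0.05 edgeR held 1 and 0 of the 10 genes, beside 1462 of 13589 and 701 of 13584 over all genes. In the paired fit Polk (plain difference 0.39 ± 0.20, paired adjusted p = 0.0152) and Sesn2 (plain 0.44 ± 0.15, paired 0.0108) changed more in A. cahirinus than in C56BL6, beside 16.8%. Ephx1 changed less than in wild mice in the paired fit (plain difference -0.60 ± 0.52, paired adjusted p = 0.0361), beside 7.25%. No difference between wild mice and C56BL6 was called in any of the 10 genes: the plain fit called 0% and 0% of all genes at 24 h and 12 d, the paired fit 0.647% and 0.101%, and 0.00615% at 12 d without wild replicate 1. Plain edgeR fits held 0 and 0 of the 10 at an unadjusted p under 0.05, beside 253 of 15612 and 353 of 15914 genes. Paired ones held 2 and 2, beside 2110 of 15612 and 1765 of 15914. Without wild replicate 1 the paired fit of 12 d held 3, beside 1431 of 16271. DESeq2 was not run on interactions.

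Between untreated cultures of the 2 mouse populations 1 of the 10 genes was called. Ercc5 was lower in untreated wild than in untreated C56BL6 cultures at 24 h (28.4 ± 2.84 against 39.5 ± 2.16 CPM, SD, n = 4 each; -0.48 ± 0.10, adjusted p = 0.031) and at 12 d (33.9 ± 1.37 against 54.5 ± 8.37 CPM; -0.69 ± 0.13, adjusted p = 0.0269). The groups did not overlap at either time. The call was lost at 24 h without replicate 1, 2, 3 or 4 (adjusted p = 0.0559 to 0.174) and at 12 d without replicate 2, 3 or 4 (0.117, 0.0879 and 0.248). The fit called 5.7% and 2.93% of all genes at 24 h and 12 d. Tigar was below C56BL6 in every wild library at 24 h (-0.61 ± 0.15, adjusted p = 0.0503), as were Sesn1, Tigar, Polk and Ephx1 at 12 d, without a call. No share over all genes is given for such separation, and the wild 12 d libraries numbered 1 matched those numbered 4. At an unadjusted p under 0.05 the plain edgeR fit held 2 of the 10 genes at 24 h and 6 at 12 d. Over all genes that cut held 3175 of 14317 and 2174 of 14238.

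Other genes of these pathways were read from lists, with the paired fit of 20 Gy against untreated in the order C56BL6, wild mice, A. cahirinus. Over all genes, in both directions together, this fit called 17.6%, 12.5% and 24.1% in the 24 h libraries. For the later time it called 47.5%, 15.4% and 49.2%, and 2% in wild mice without replicate 1. Each count below for 20 Gy against untreated is to be read against the share of its own fit. At 12 d without wild replicate 1, the wild counts of higher and lower genes were 9 and 0 for other p53 targets, 0 and 0 for excision repair, 0 and 1 for translesion synthesis, 0 and 0 for nucleotide supply, 0 and 0 for GATOR, 0 and 0 for ATF4, 0 and 0 for glycolysis, 0 and 0 for ferredoxin, and 1 and 0 for NRF2 targets, to be read beside the wild counts below. Of 24 other p53 targets (23 tested in A. cahirinus), 15, 21 and 19 were higher and 0 lower at 24 h, with medians of 0.36, 0.67 and 0.61; at 12 d 17, 21 and 18 were higher and 0, 0 and 2 lower. Mdm2, the ubiquitin ligase that degrades p53, changed by 1.74, 1.80 and 1.26 at 12 d in the paired fit, and Pmaip1, the death-promoting NOXA, by 2.45, 4.79 and 2.47. The median of the 10 genes at 12 d was 0.29, 0.23 and -0.06, beside 0.00, 0.00 and -0.01 over all genes.

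Of 20 other nucleotide excision repair genes, 2, 1 and 1 were higher and 1, 0 and 2 lower at 24 h, and 5, 1 and 3 were higher and 1, 0 and 3 lower at 12 d. At 12 d both directions together are a smaller share than that of all genes in each population. Xpa, the damage verification factor, was higher in A. cahirinus at 12 d (0.61, paired adjusted p = 0.00517) and Ercc1, a subunit of the 5′ nuclease, lower (-0.47, 0.00415). Of 8 other translesion synthesis genes none was higher at either time, while 1, 2 and 3 were lower at 24 h and 4, 2 and 8 at 12 d. The 12 d share in C56BL6, 4 of 8, lies near the 47.5% of all genes called there. At 12 d the median was -0.26, -0.30 and -0.60. The list includes Rev3l, the catalytic subunit of polymerase zeta, at -1.40, -0.86 and -0.57. Polk, of the same pathway, was higher in these comparisons.

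Among the partners of Rrm2b in nucleotide supply, at 12 d 1, 2 and 1 of 8 were higher and 3, 0 and 5 lower. Rrm2, the S-phase counterpart of Rrm2b, changed by 1.31 and 1.21 in the mice and -2.07 in A. cahirinus (paired adjusted p = 0.00414, 0.0173 and 0.000795; wild 0.0671 without replicate 1). The difference between species was not tested for this list. Of 10 ATF4 targets other than Sesn2, 4, 2 and 0 were higher and 1, 1 and 8 lower at 12 d, with medians of 0.14, -0.01 and -1.26. Trib3, a pseudokinase induced by ATF4, stood at -1.92 in A. cahirinus (paired adjusted p = 0.000104). Of 9 sestrin and GATOR partners, 4, 2 and 4 were lower and 1, 1 and 0 higher at 12 d.

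Beside Ephx1, 6, 4 and 7 of 7 tested epoxide hydrolases and NRF2 targets were higher at 12 d and none lower, with medians of 1.07, 0.68 and 0.71. Hmox1, the haem oxygenase, changed by 1.38, 1.11 and 2.35, and Nqo1, a quinone reductase, by 2.16, 0.73 and 1.76 (wild Nqo1 adjusted p = 0.0877 without replicate 1). Both were higher in A. cahirinus, where Ephx1 was not. Untreated passaged cultures also had 6, 2 and 5 of the 7 higher than untreated ones and 0, 0 and 1 lower. The paired fit called 60.1%, 31.9% and 49.5% of all genes there, and the wild count lies near its share. Against passaged cultures 20 Gy gave 2, 1 and 4 higher and 2, 1 and 1 lower, with medians of 0.13, -0.01 and 0.51. The shares of all genes were 56.1%, 38% and 56%, and the C56BL6 count in both directions lies near its share. Beside Tigar, 4, 2 and 1 of 11 glycolysis and pentose phosphate genes were higher and 2, 1 and 6 lower at 12 d; Pgd, an oxidative pentose phosphate enzyme, was higher in all 3 populations (0.57, 0.59 and 0.79; wild adjusted p = 0.124 without replicate 1). Beside Fdxr, 3 of 8 tested ferredoxin and iron-sulfur genes were higher and 1 lower in A. cahirinus, and the higher ones included the scaffold gene Iscu at 0.65; C56BL6 had 2 higher and 2 lower and wild mice none of 7.

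Likeness was described as the Pearson correlation of log2(CPM + 0.5) over the 28 libraries of a population, averaged over the 3 populations, against 10532 genes. The libraries share animals, batches and doses, so no p is given. Polk was most like Ccng1 (0.91), Mdm2 (0.89) and Zmat3 (0.87), and Ercc5 most like Trp53inp1 (0.88), Abhd4 (0.83) and Rnf169 (0.81). Among the 10 genes Polk and Ercc5 were most alike (0.81). Sesn1 was most like Mmp19 (0.82), Bmf (0.80) and Rhobtb1 (0.80) and least like Tigar among the members (-0.51; -0.86 in C56BL6 and -0.02 in A. cahirinus). Tigar was most like Btbd10 (0.82), Bysl (0.82) and Fxr2 (0.80), Xpc like Hdhd2 (0.80), Rrm2b like Nbr1 (0.77), Ddb2 like Tbc1d2b (0.74), and Sesn2 like Klf4 (0.72), Slc19a2 (0.70) and Gdf15 (0.65). The best averages of Ephx1 and Fdxr were 0.67 with Cst6 and 0.67 with Bcs1l, and these differed by population. Ephx1 with Cst6 stood at 0.81, 0.79 and 0.42 in C56BL6, wild mice and A. cahirinus. Fdxr with Bcs1l stood at 0.43, 0.75 and 0.84 in the same order. On average Fdxr correlated with no other member above 0.11.

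**Figure D4:**
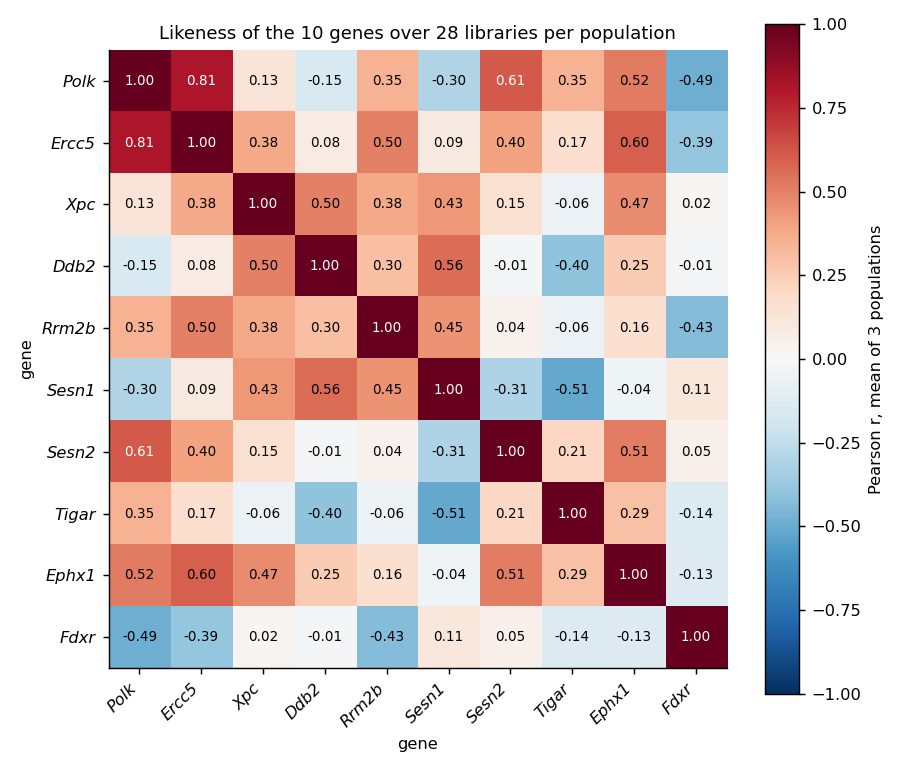
Pearson correlation between each pair of the 10 genes, of log2(CPM + 0.5) over the 28 libraries of a population and averaged over the 3 populations. Values were first centred on the mean of their population and time. The pairs among Polk, Ercc5, Ephx1 and Sesn2 are all red (0.40 to 0.81), and Sesn1 with Tigar (-0.51) and Fdxr with Polk (-0.49) are the bluest cells.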

How the data were processed

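RNA-seq counts per gene were deposited by the authors in 2 tables, 56 mouse libraries and 28 A. cahirinus libraries. Per the file headers the counts were made with featureCounts 2.0.3 on read pairs with both ends aligned, with no option for strand, overlapping genes or multiple alignments; the library is stranded per the labels, so reads of genes on opposite strands cannot be separated. The submitters' processing notes name Trim Galore, HISAT2 and GRCm39, the last also for A. cahirinus, whose table header names an AcoCah2 annotation.

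Each library's group comes from its title. Counts were fitted in R 4.3.3 with edgeR 4.0.16 (filterByExpr, TMM scaling, quasi-likelihood test, Benjamini-Hochberg over all genes, threshold 0.05), each comparison on its 2 groups and each interaction on its 4. Alternatives were DESeq2 1.42.0 (interactions not included), relative log expression scaling, no filter, all groups in one fit, the animal as a block, and each replicate number left out; the block without wild replicate 1 was chosen after seeing the data. The scripts were checked on simulated counts. The numbers pair the samples: they stand for animals in the library names (number 1 of wild mice at 12 d goes against its code), and same-numbered libraries deviated together in all 24 comparisons within a population, with a lowest correlation of 0.36 (20 Gy against passaged, A. cahirinus). No comparison of levels was made between species.

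Levels are CPM on TMM-scaled totals, or RPKM with the exon length of the table. With 17.42 to 52.86 M counts per library, 3 counts, the smallest number read as detected, equal 0.0568 to 0.172 CPM. The 10 genes, the lists and the rule for named list genes (the 4 with the largest mean change at 20 Gy, of which some are printed) were chosen with earlier results of these data known, so they are not independent support. The value of 1 list gene is not reported here.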

Additional observations from a re-analysis of the deposited data

Results flagged for a closer look

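In 210 groups of 4 libraries, 1 for each gene and group, 8 held a library whose gap to its nearest neighbour was large against the range of the group; chance gives about 1 in 20. The high ones were Sesn1 in C56BL6 replicate 4 at 10 Gy and 12 d (17.44 CPM, others 14.82 to 14.92), Ddb2 in A. cahirinus replicate 4 at 20 Gy and 12 d (4.071 CPM, others 2.998 to 3.087), Xpc in untreated wild replicate 3 at 12 d (22.49 CPM, others 20.13 to 20.45) and Polk in A. cahirinus replicate 2 at 20 Gy and 12 d (29.27 CPM, others 19.05 to 19.69). The low ones were Rrm2b in untreated A. cahirinus replicate 2 at 12 d (23.09 CPM, others 25.74 to 26.28), Ddb2 in wild replicate 1 at 20 Gy and 24 h (1.425 CPM, others 2.966 to 3.092), Ddb2 in wild replicate 3 at 20 Gy and 12 d (2.188 CPM, others 4.132 to 4.441) and Ephx1 in wild replicate 3 at 10 Gy and 12 d (237.6 CPM, others 474.4 to 482.5).

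In the plain fit, the test of the difference between A. cahirinus and C56BL6 called 2 of the genes at 20 Gy and 12 d. The same fit called 18.8% of all genes tested, and the count of 2 lies near that share. The log2 change of Sesn1 was less negative in A. cahirinus than in C56BL6, with a difference of 0.714 (edgeR quasi-likelihood test, adjusted p = 0.00895), and the difference for Xpc was -0.436 (adjusted p = 0.0311). In the same test the Xpc call was lost without any 1 replicate number (adjusted p = 0.065 to 0.137). The Sesn1 call was lost without replicate 3 (adjusted p = 0.0962).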

How the results depend on the processing

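Counts below are of the 10 genes past the threshold, given as plain fit to alternative. Shares over all genes are given above for the plain and paired fits only. With the animal as a replicate block the counts at 20 Gy against untreated went from 0 to 4 (C56BL6, 24 h), 0 to 4 (wild, 24 h), 2 to 4 (A. cahirinus, 24 h) and 0 to 6 (wild, 12 d; 3 without wild replicate 1). At 10 Gy against untreated they went from 0 to 2 (C56BL6, 24 h), 2 to 4 (A. cahirinus, 24 h), 3 to 6 (C56BL6, 12 d), 0 to 4 (wild, 12 d; 3 without wild replicate 1) and 0 to 3 (A. cahirinus, 12 d), and to 4 in wild mice at 24 h only without replicate 1. Between doses the block gave 2 in A. cahirinus at 12 d, and 1 in wild mice at 24 h without replicate 1. Against passaged cultures wild mice went from 2 to 5 (4 without replicate 1). Differences between populations went from 2 to 4 (A. cahirinus and C56BL6, 12 d), 0 to 3 (A. cahirinus and wild, 12 d; 3 without wild replicate 1), 0 to 2 (A. cahirinus and C56BL6, 24 h) and 0 to 1 (A. cahirinus and wild, 24 h).

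DESeq2 gave 2 (C56BL6) and 1 (wild) at 20 Gy and 24 h, 3 at 20 Gy in wild mice at 12 d, 2 at 10 Gy in C56BL6 at 24 h, 3 (wild) and 2 (A. cahirinus) at 10 Gy and 12 d, 5 for wild passaged against untreated, and 2 for untreated wild against C56BL6 at each time. All groups in one fit gave 1 in C56BL6 at 20 Gy and at 10 Gy and 24 h, 1 in A. cahirinus at 10 Gy and 12 d, and 3 in place of 5 for passaged A. cahirinus. Without the filter the wild counts were 1 for 20 Gy against passaged and 0 for passaged against untreated, and 0 for untreated wild against C56BL6 at 24 h. The cause was not tested.

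Leaving out 1 replicate number at a time gave, in the order C56BL6, wild, A. cahirinus, 0 to 2, 0 to 0 and 0 to 2 (20 Gy, 24 h), 1 to 5, 0 to 0 and 0 to 6 (20 Gy, 12 d), 0 to 1, 0 to 0 and 0 to 3 (10 Gy, 24 h), 1 to 5, 0 to 1 and 0 to 1 (10 Gy, 12 d), 0 to 0, 0 to 0 and 0 to 1 (20 against 10 Gy, 12 d), 4 to 6, 0 to 3 and 0 to 3 (passaged against untreated) and 5 to 7, 0 to 3 and 3 to 6 (20 Gy against passaged). It gave 0 to 2 for the difference between A. cahirinus and C56BL6 at 12 d, and 0 to 1 for untreated wild against C56BL6 at each time.

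Of the 98 changes of single genes called in the plain or paired fit none changed sign under these alternatives; of 222 not called, 64 did. Relative log expression scaling moved the median of all genes by at most 0.034. On total counts, 8 of 210 group means in CPM moved by more than 1 SD. Low counts bear most on Ddb2: wild replicate 1 at 24 h and 10 Gy held 1 count of it, and every library of the other groups at least 41. That library held 17.42 M counts in total and its companions 29.05 to 32.52 M. Its Ddb2 was also lowest after scaling to depth, at 0.0645 CPM against 1.88 to 2.84 CPM. The cause was not tested.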
